A study of Mus musculus with 16 samples.

Results

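Nuclear genes for the subunits of the oxidative phosphorylation (OXPHOS) complexes were analyzed in the cortex of mouse pups at P7. The members were the entries of the deposited table whose names stand for subunits of complex I (Nduf), complex II (Sdh), complex III (Uqcr and Cyc1), complex IV (Cox4 to Cox8) or the ATP synthase, complex V (Atp5). Of 86 matching names, 81 genes were kept of the 21183 genes that passed the filter on low values, which is a value above 0.03125 CPM (read counts scaled to a common library size) in at least 12 of 16 pups. Counted by name, the 81 members comprised 36 genes of complex I, 4 of complex II, 9 of complex III, 16 of complex IV and 16 of complex V. A name need not give the complex in which the protein works. The rule used names, positions and this filter, but it was chosen with earlier results of these data known. The entry Atp5c1-ps was left out as a pseudogene by its name. Atp5b, the catalytic beta subunit of the ATP synthase, and Ndufa4l2 were left out because they lie close to Avil on chromosome 10. Cox8b and Cox8c, tissue-restricted forms of subunit 8 of complex IV, did not pass the filter, and Cox8b had no reads in any pup.

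The pups were C57BL6 mice of 7 days of age, 8 Avil-ChR2 and 8 ChR2-flfl. ChR2-flfl pups carry a floxed STOP in front of the light-gated channel channelrhodopsin-2 (ChR2) fused to tdTomato, but no Cre. Avil-ChR2 pups carry Cre in addition, driven by the promoter of Avil (advillin), which is active in peripheral sensory neurons. The paper assumes that blue light reaches these neurons through the skin and excites them. It does not exclude that some Merkel cells of the skin were excited too. Pups of both genotypes were exposed to blue light for 1 h per day from P1 to P5, the cortex was taken at P7, and poly(A) RNA of the bulk tissue was sequenced. Pups without light were not analysed here, so that the genotype itself and the response to light cannot be told apart.

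Mitochondria make most of the ATP of neurons by passing electrons from NADH through complex I, or from succinate through complex II, to ubiquinone, and further through complex III, cytochrome c and complex IV to oxygen. Complexes I, III and IV pump protons during this transfer, and complex V uses the proton gradient to make ATP. A few core subunits of complexes I, III, IV and V are encoded by mitochondrial DNA, whereas all others, and the whole of complex II, are encoded in the nucleus and imported. In the postnatal cortex the demand for ATP grows as neurons become active, and nuclear OXPHOS genes are often transcribed in concert, for which NRF1, the ETS factor GABP and YY1 are known regulators.

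The label checks touch the results as follows. Avil was at 0.825 to 1.46 CPM in the 8 ChR2-flfl pups and at 37.3 to 46.4 CPM in the 8 Avil-ChR2 pups, as the genotype labels have it. In Avil-ChR2 replicate 4, whose label says female and which the paper's Additional file 2 lists as male, Y-linked genes were at the level of male pups, with Ddx3y at 54.7 CPM. In the other pups Ddx3y was at 1.71 to 2.57 CPM in 8 females and at 50.7 to 73.4 CPM in 7 males. Results by sex are therefore given with both sexes for that pup and without it. The libraries held 30549126 to 48711134 reads, and 1 ChR2-flfl library was shallower than the others. A member had a median of 2635 reads per pup. For the median member the standard deviation between pups of a genotype was 0.082 on the log2 scale. That from counting alone was 0.028, so that counting error made up little of its spread. In members with few reads it made up more, with 0.376 and 0.255 for Cox7a1 and 0.519 and 0.367 for Cox7b2.

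The promoters are shown for members the results turn on. RefSeq promoter windows on GRCm38.p6, from 250 bases before to 50 bases after the gene start, were found for 64 of the 81 members. Below are those of Ndufs5, Ndufb8 and Cox7a1, which had an unadjusted p under 0.05 between genotypes, and that of Cox6a1, which holds 3 of the 4 kinds of motif letters searched. Capitals mark the letters of the motifs that follow, and all windows are written 5′ to 3′ on the strand of the gene.

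The Ndufs5 window lies at chr4:123718137-123718436 on the minus strand, and the Ndufb8 window at chr19:44555393-44555692 on the minus strand.
Ndufs5: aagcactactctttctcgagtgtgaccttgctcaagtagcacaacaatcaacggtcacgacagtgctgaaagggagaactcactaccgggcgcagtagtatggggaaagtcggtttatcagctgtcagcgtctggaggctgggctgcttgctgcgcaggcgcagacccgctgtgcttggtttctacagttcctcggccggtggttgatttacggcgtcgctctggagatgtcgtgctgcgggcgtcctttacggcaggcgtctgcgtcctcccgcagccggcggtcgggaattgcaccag
Ndufb8: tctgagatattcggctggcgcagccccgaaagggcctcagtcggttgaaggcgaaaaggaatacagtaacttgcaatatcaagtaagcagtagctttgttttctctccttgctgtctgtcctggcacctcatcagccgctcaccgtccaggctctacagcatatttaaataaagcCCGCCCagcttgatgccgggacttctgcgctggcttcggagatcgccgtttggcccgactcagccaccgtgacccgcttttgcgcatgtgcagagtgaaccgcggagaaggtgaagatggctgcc
The Cox7a1 window lies at chr7:30183921-30184220 on the plus strand, and the Cox6a1 window at chr5:115348909-115349208 on the minus strand.
Cox7a1: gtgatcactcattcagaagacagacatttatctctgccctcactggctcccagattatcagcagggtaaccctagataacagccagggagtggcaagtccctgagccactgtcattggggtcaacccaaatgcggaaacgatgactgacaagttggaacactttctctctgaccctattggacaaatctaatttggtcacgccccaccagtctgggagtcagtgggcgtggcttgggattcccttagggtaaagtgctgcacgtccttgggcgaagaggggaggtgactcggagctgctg
Cox6a1: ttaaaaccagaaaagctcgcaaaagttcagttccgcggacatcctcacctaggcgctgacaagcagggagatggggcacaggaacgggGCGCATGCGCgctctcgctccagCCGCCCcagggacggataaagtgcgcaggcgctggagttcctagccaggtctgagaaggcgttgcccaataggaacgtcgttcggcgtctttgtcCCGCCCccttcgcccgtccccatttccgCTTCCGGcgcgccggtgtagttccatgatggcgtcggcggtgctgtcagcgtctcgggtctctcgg

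On both strands, the letters GCGCATGC of an NRF1 motif stood in the windows of 10 of 64 members (15.6%), against 3.05% of all 27025 genes with a window. The ETS letters CCGGAAG stood in 16 members (25% against 9.93%), and the YY1 letters AAGATGGCG in 7 members (10.9% against 1.64%). GC box letters, GGGCGG, were about as frequent in members as in all genes, at 39.1% against 38.2%. Cox6a1 held NRF1 letters, which overlap on the 2 strands because they are nearly palindromic, ETS letters and 2 GC boxes. Ndufb8 held a GC box, and the Ndufs5 and Cox7a1 windows held none of the 4. In all, 27 of the 64 members held NRF1, ETS or YY1 letters. These matches describe the letters of the windows and were not tested as binding sites.

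The members were abundant transcripts, and together they made up 5832 to 6572 CPM of a library. In CPM the highest member was Atp5a1, the alpha subunit of the catalytic head of the ATP synthase, with a mean of 756 CPM over all 16 pups. Levels between genes were compared as CPM per kb of the principal GENCODE transcript, which was available for 80 members. On this scale Cox4i1, the ubiquitous form of subunit 4 of complex IV, was highest at 317 CPM per kb, followed by Atp5a1 at 306 CPM per kb and Ndufa4 at 287 CPM per kb. Ndufa4 carries a complex I name and is now known as a subunit of complex IV. Medians per complex were 52.9 CPM per kb for complex I, 72.8 for complex II, 78.1 for complex III, 83.5 for complex IV and 74.1 for complex V, and thus lay within a narrow range.

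**Figure D1:**
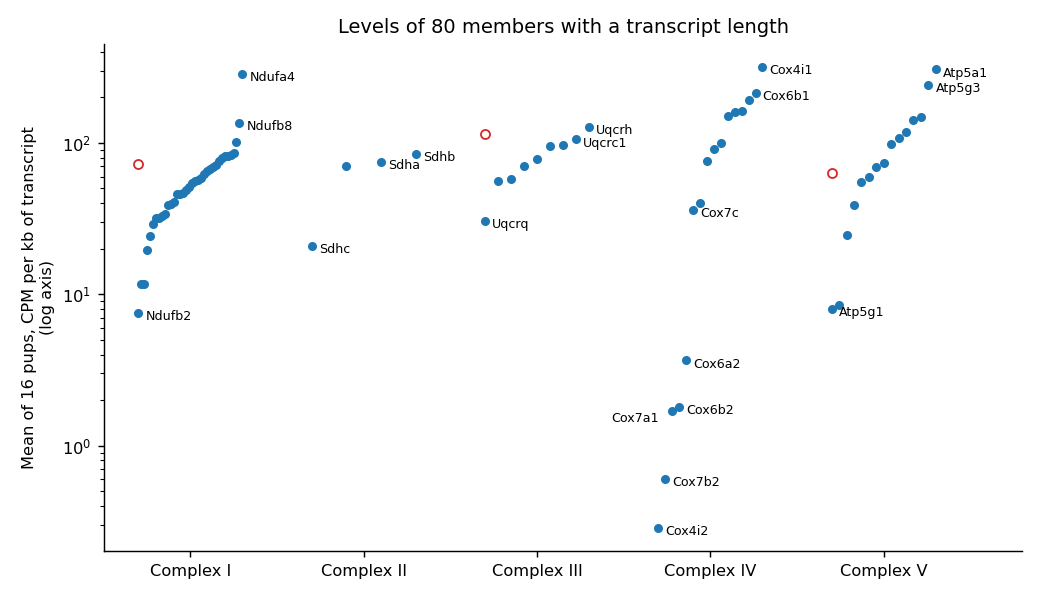
Mean level of each of 80 members over 16 pups in CPM per kb of transcript, on a log axis, with 1 filled point per gene, ordered within each complex. Open red circles show Ndufb2, Uqcrq and Atp5g1 with the shortest instead of the longest principal transcript; 5 complex IV genes lie below 4 CPM per kb, and all other members above 7.

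Within complexes the levels spread unequally. In complex I the range was 7.57 to 287 CPM per kb, with Ndufb8, an accessory membrane subunit, second at 136. In complex II, Sdhb (84.4 CPM per kb), the iron-sulfur subunit, Sdha (75.1), the flavoprotein, and Sdhd (70.6), a membrane anchor, lay close together, whereas Sdhc, the other anchor, was at 20.8. In complex III, Uqcrh, the hinge protein, was at 127 and Uqcrc1, a core protein, at 105 CPM per kb. The lowest values of complexes I, III and V depended on the transcript taken as principal. Ndufb2, at 7.57 CPM per kb with a transcript of 4371 bases, was at 72.7 with the shortest principal transcript. Uqcrq moved likewise from 30.5 to 115 and Atp5g1 from 8.03 to 63.5 CPM per kb. Only complex IV held genes at trace levels, and these were tissue-restricted isoforms, described further below.

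The comparison of Avil-ChR2 with ChR2-flfl asks whether the OXPHOS genes of the cortex differed between the genotypes after early exposure to blue light. None of the 81 members passed an adjusted p of 0.05 in limma, with Benjamini-Hochberg adjustment over all 21183 genes, where 2 genes (0.00944%) passed. At an unadjusted p under 0.05 there were 4 members (4.94%), against 5.41% of all genes, so that their share was near the background. All 4 were higher in Avil-ChR2 pups, a direction in which 1.95% of all genes passed. They included Ndufs5 and Ndufb8 of complex I and Cox7a1 of complex IV. In no member were the values of the genotypes separate without overlap, which was so for 0.0283% of all genes tested.

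The differences were small and mostly of 1 sign. Avil-ChR2 values were higher for 69 and lower for 12 of the 81 members, whereas 51.4% of all genes tested were higher. The median log2 difference of the members was 0.028, or 1.93%, against 0.002 for all genes. The differences of 78 members were smaller than 0.1 on the log2 scale, and the median half-width of their 95% confidence intervals was 0.084. By complex, 31 of 36 members of complex I, 4 of 4 of complex II, 8 of 9 of complex III, 13 of 16 of complex IV and 13 of 16 of complex V were higher. The members vary together between pups, as shown further below, so that 69 genes on 1 side are not 69 separate observations. In bulk cortex, fewer cells of a type and less RNA per cell cannot be told apart.

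**Figure D2:**
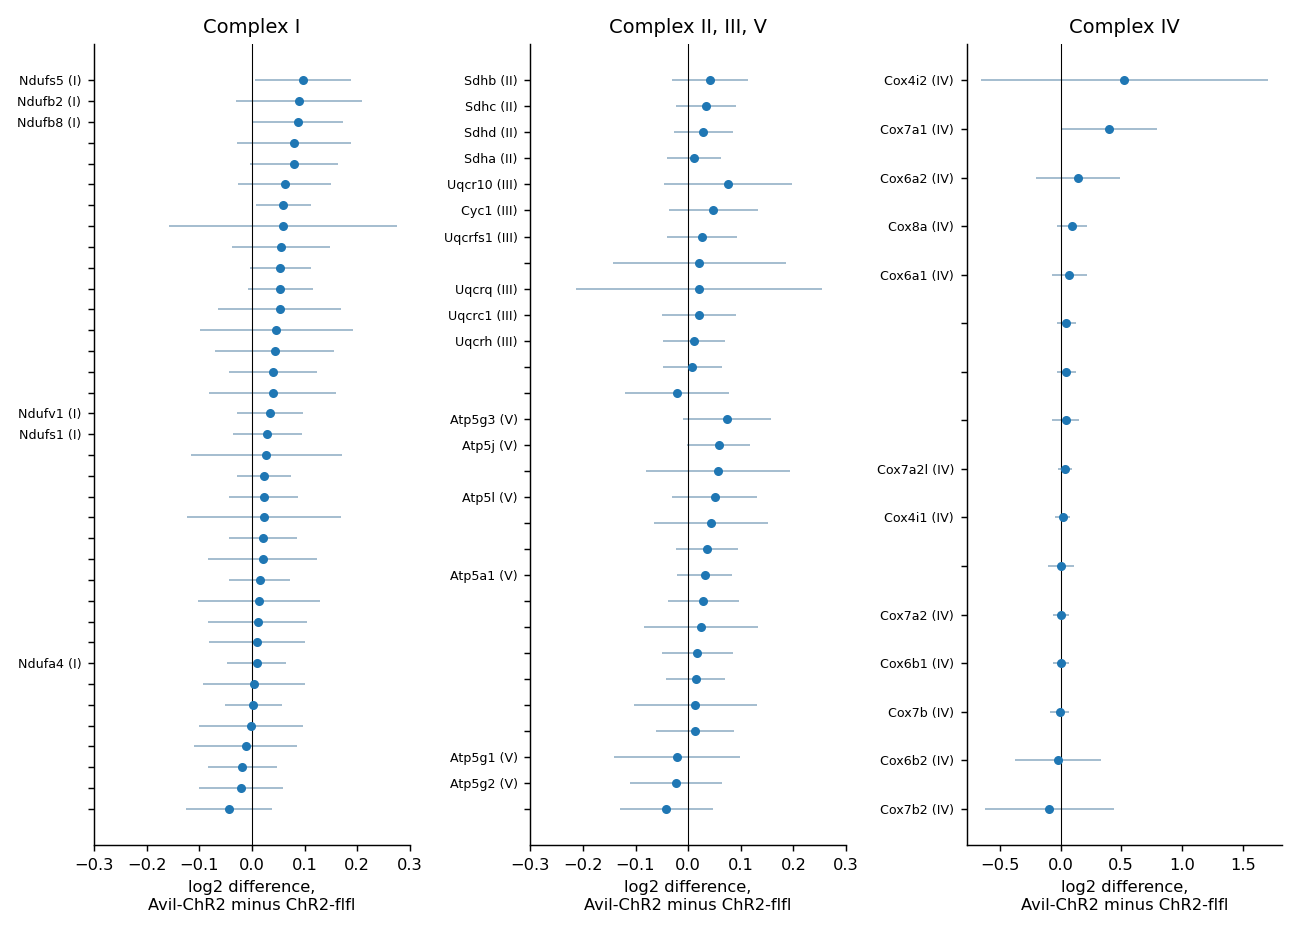
log2 difference, Avil-ChR2 minus ChR2-flfl, of each of the 81 members (points) with 95% confidence intervals of the limma fit (lines, n = 8 per genotype), by complex, with names for the genes described in the text; the complex IV panel has a wider axis. Most points lie slightly right of 0, and intervals that exclude 0 are those of 4 members.

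The sign of this shift changed when a slope on gene length was taken into the model. In each pup, the slope of the log2 deviation on log2 genomic span was fitted over all other genes with a mean log2 CPM of at least 0. A positive slope means that long genes had relatively more reads in that pup. The slope lay between -0.011 and 0.021 with a median of 0.0066 in ChR2-flfl pups, and between -0.012 and 0.0088 with a median of -0.0062 in Avil-ChR2 pups. Spliced OXPHOS transcripts are short, with a median of 824 bases against 2783 bases for all genes tested. This is the length of the transcript and not the genomic span. With the span slope of each pup as a covariate, 37 members were higher and 44 lower in Avil-ChR2 pups, and the median difference was -0.008. In that fit 8 members passed an unadjusted p under 0.05, all lower (Atp5d, Atp5g2, Ndufa2, Ndufb6, Ndufb7, Ndufs7, Uqcr11 and Uqcrq). Of all 21183 genes, 1149 passed at that level, 674 of them lower. With the slope on transcript length, an alternative added after seeing the data, 26 were higher and 55 lower, with a median of -0.014. Cox7a1 was the 1 member under 0.05 and was higher, where 744 of all genes passed, 351 of them higher. The part of this length slope in the genotype shift was not tested.

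The mean of the members per pup followed the same slope. Each gene was centred on its mean over 16 pups, and the deviations were averaged over the 81 members. This mean lay between -0.12 and 0.14 in ChR2-flfl pups, with a median of -0.016, and between -0.084 and 0.048 in Avil-ChR2 pups, with a median of 0.033. ChR2-flfl replicate 2 was the highest of all pups and ChR2-flfl replicate 7 the lowest, so that the ChR2-flfl range enclosed all Avil-ChR2 pups. Cox4i2 was at the floor of -5 in ChR2-flfl replicate 7. Without this gene, the mean was -0.086 in that pup and -0.085 in Avil-ChR2 replicate 6, the lowest of its genotype. Across the 16 pups the 81-member mean had a Pearson r of -0.86 and a Spearman rho of -0.94 with the span slope. Without the 2 pups with the farthest slopes, r was -0.81. Within Avil-ChR2 pups r was -0.83, and within ChR2-flfl pups -0.87 (8 pups each). Both measures come from the same library and the same CPM scale, so these correlations are descriptions. The count of members with an unadjusted p under 0.05 between genotypes depended on single pups. It was 14 without ChR2-flfl replicate 2, where the median difference was 0.045, and 7 without Avil-ChR2 replicate 6. In these fits 1581 and 1225 of all genes passed at that level, against 1145 with all pups. The count of members was 0 without ChR2-flfl replicate 1, Avil-ChR2 replicate 1 or Avil-ChR2 replicate 5. In the same order, 1011, 1100 and 1096 of all genes passed. The count was 1 without ChR2-flfl replicates 4 or 7 or Avil-ChR2 replicate 4, against 1079, 929 and 1043 of all genes. It was 2 without Avil-ChR2 replicates 3, 7 or 8, against 1116, 984 and 1076 of all genes.

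**Figure D3:**
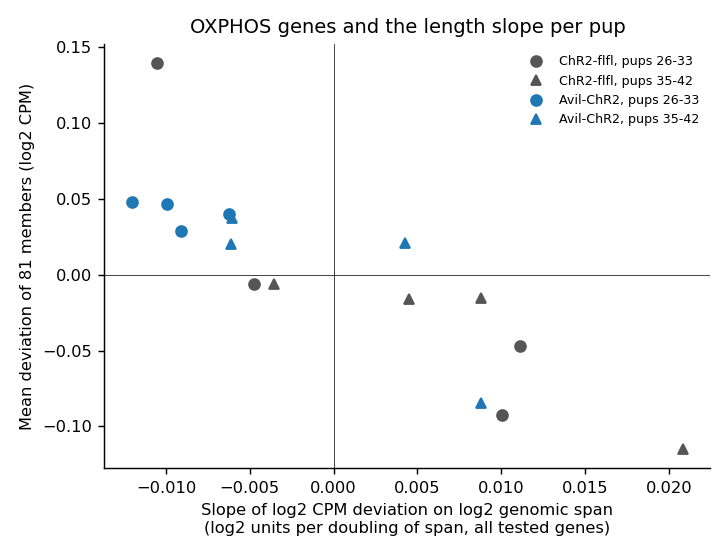
Mean deviation of the 81 members in log2 CPM (y axis) against the slope of log2 CPM on log2 genomic span (x axis, log2 units per doubling of span) for each of 16 pups, by genotype (colour) and run of pup numbers (shape). The points fall from upper left to lower right, with ChR2-flfl replicate 2 at 0.14 and ChR2-flfl replicate 7 at -0.12. Without Cox4i2, which was at the floor in ChR2-flfl replicate 7, the mean of that pup was -0.086.

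**Figure D4:**
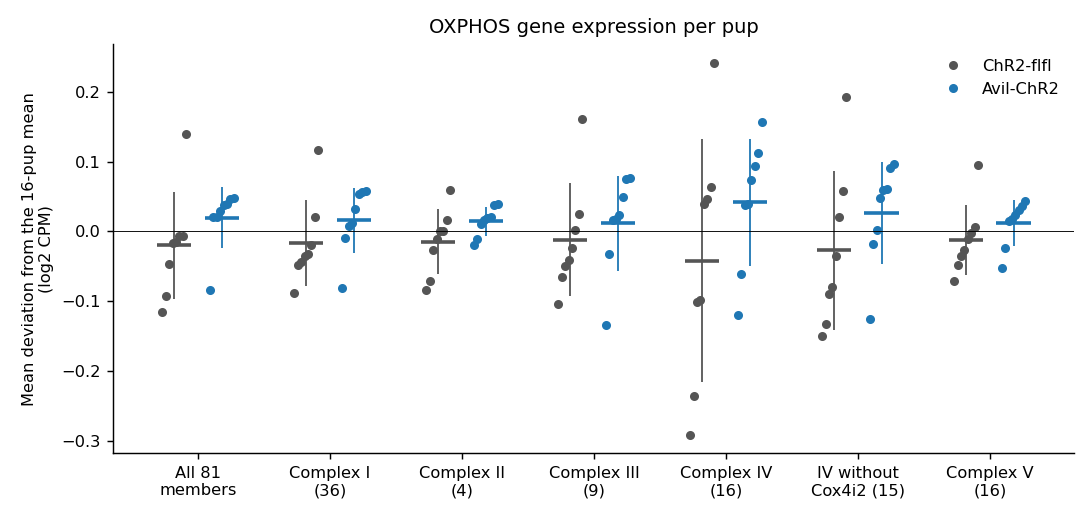
Mean deviation of the members from their 16-pup means in log2 CPM for each pup, over all members and by complex, with 1 point per pup, horizontal bars for means and vertical lines for SD (n = 8 per genotype). The genotypes overlap in every set; complex IV is also shown without Cox4i2, which was at the floor in 3 pups.

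Complex I, the NADH dehydrogenase, held the largest number of members. Ndufs5, an accessory subunit (chr4:123712710-123718186), was at 20.1 to 24.2 CPM in ChR2-flfl pups (median 22.5) and at 22.5 to 25.6 CPM in Avil-ChR2 pups (median 23.4). Each of the 8 Avil-ChR2 values exceeded the mean of ChR2-flfl, but only 3 exceeded its highest value. Its log2 difference was 0.097 ± 0.043 (SE), with an adjusted p of 0.892 in limma. Ndufb8 (chr19:44548576-44555446) was at 83.3 to 98.7 CPM (median 86.5) in ChR2-flfl pups and at 86.2 to 103 CPM (median 97.1) in Avil-ChR2 pups, and the ranges overlapped widely. Its difference of 0.088 ± 0.041 (SE) had an adjusted p of 0.911 in limma. With the span slope as a covariate the log2 difference of Ndufb8 was 0.026 and that of Ndufs5 was 0.060. The exact permutation p was 0.042 for Ndufs5 and 0.063 for Ndufb8 (8 pups each).

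The other complex I genes named had small differences that did not pass the test. Ndufv1, the subunit that binds NADH, was at 101 to 114 CPM in ChR2-flfl and at 102 to 114 CPM in Avil-ChR2 pups, with a log2 difference of 0.034 and a 95% interval of -0.028 to 0.096. Ndufs1, the large iron-sulfur subunit, was at 111 to 126 CPM and at 116 to 133 CPM, with a difference of 0.030 (-0.035 to 0.095). An annotated antisense gene, Ino80dos, overlaps Ndufs1, and whether the counting used the strand is not given. Ndufa4 was at 162 to 182 and at 170 to 184 CPM, with a difference of 0.009 (-0.047 to 0.065). Ndufb2, an accessory subunit, was at 28.5 to 39.7 and at 31.5 to 37.3 CPM, with a difference of 0.090 (-0.030 to 0.209). In percent, the upper bound of the interval was 6.90% for Ndufv1, 6.79% for Ndufs1 and 4.62% for Ndufa4.

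Complex II, the succinate dehydrogenase, also belongs to the citric acid cycle. All 4 genes had values slightly higher in Avil-ChR2 pups, and none passed the test. Sdha was at 201 to 226 CPM in ChR2-flfl pups (median 219) and at 212 to 228 CPM in Avil-ChR2 pups (median 218), with a log2 difference of 0.011 ± 0.024 (SE). Sdhb was at 84.9 to 103 (median 95.3) and at 91.4 to 103 CPM (median 97.0), with a difference of 0.041 ± 0.035. Sdhc was at 62.5 to 70.8 (median 64.7) and at 65.5 to 68.5 CPM (median 66.9), with a difference of 0.034 ± 0.027. Sdhd was at 79.2 to 89.0 (median 86.6) and at 83.8 to 91.1 CPM (median 87.8), with a difference of 0.029 ± 0.027. The Avil-ChR2 ranges lay largely within the ChR2-flfl ranges for all 4 genes.

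In complex III, the cytochrome bc1 complex, Uqcr10, a small accessory subunit, had the smallest unadjusted p. It was at 36.8 to 47.7 CPM in ChR2-flfl pups (median 39.7) and at 33.9 to 46.0 CPM in Avil-ChR2 pups (median 43.5), where 7 of 8 Avil-ChR2 values exceeded the mean of ChR2-flfl and Avil-ChR2 replicate 6 was lowest of all pups. Its log2 difference was 0.075 ± 0.058 (SE), with an adjusted p of 0.945 in limma. Cyc1, cytochrome c1, was at 97.9 to 120 CPM and at 103 to 115 CPM, with a difference of 0.048 (95% interval -0.036 to 0.132). Uqcrfs1, the Rieske iron-sulfur protein, was at 72.4 to 84.0 and at 77.8 to 84.4 CPM, with a difference of 0.026 (-0.041 to 0.093). Uqcrc1 was at 164 to 189 and at 166 to 183 CPM (0.020, -0.050 to 0.091), and Uqcrh at 64.9 to 71.7 and at 65.0 to 73.0 CPM (0.011, -0.047 to 0.070). Uqcrq, a small accessory subunit, varied most between pups of this complex, at 38.3 to 60.7 and at 29.5 to 54.6 CPM, so that its interval was wide (0.020, -0.21 to 0.25).

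Complex IV, cytochrome c oxidase, has tissue-specific isoforms of several subunits, which exchange in heart, skeletal muscle, lung or testis. In the cortex the ubiquitous form was dominant in every pup. Cox4i1 was at 229 to 256 CPM in ChR2-flfl pups and at 227 to 254 CPM in Avil-ChR2 pups. Cox4i2, a form known from lung and oxygen-sensing cells, did not exceed 0.371 CPM in either genotype and was at 0 in 3 pups, which are 2 ChR2-flfl pups and 1 Avil-ChR2 pup. Cox4i2 overlaps Bcl2l1 on the opposite strand, at a mean of 80.3 CPM, so that its few reads may not be its own. Cox6a1 per kb was 41.9 to 71.3 times Cox6a2, the heart and muscle form, in ChR2-flfl pups and 43.6 to 68.0 times in Avil-ChR2 pups. Cox6b1 per kb was 83.2 to 175 times Cox6b2, the testis form, in ChR2-flfl pups and 90.9 to 167 times in Avil-ChR2 pups. Cox7b per kb was 78.8 to 243 times Cox7b2 in ChR2-flfl pups and 86.4 to 258 times in Avil-ChR2 pups. The ranges of these ratios in the genotypes overlapped almost in full.

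**Figure D5:**
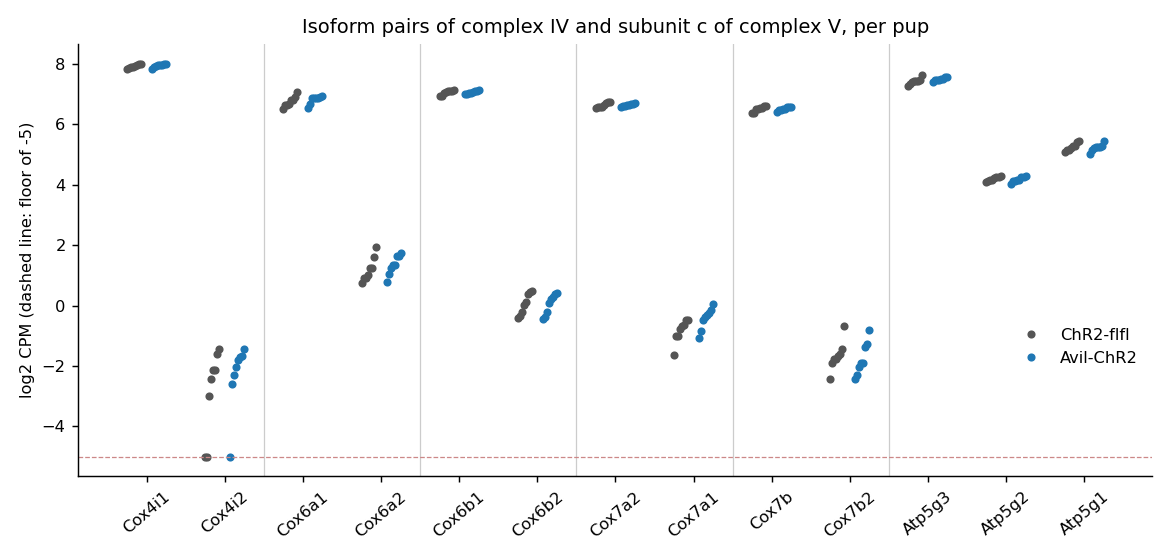
log2 CPM of the isoforms of complex IV subunits and of the 3 genes for subunit c of complex V, with 1 point per pup by genotype; the dashed line is the floor of -5, at which 3 values of Cox4i2 lie. In each pair of complex IV the ubiquitous gene lies far above its tissue-restricted partner in all 16 pups.

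Cox7a1, the heart and muscle form of subunit 7a (chr7:30184171-30186030), had the largest log2 difference among the 4 members with an unadjusted p under 0.05. It was at 0.323 to 0.724 CPM in ChR2-flfl pups (median 0.600) and at 0.470 to 1.03 CPM in Avil-ChR2 pups (median 0.780), and 6 of 8 Avil-ChR2 pups lay above every ChR2-flfl pup. The difference was 0.40 ± 0.19 (SE, n = 8 and 8), with p = 0.045 and adjusted p = 0.911 in limma and p = 0.049 in the exact permutation test. The gene was at a low level, with 10 to 35 reads in ChR2-flfl pups and 23 to 50 reads in Avil-ChR2 pups. Its difference was uneven, with 0.77 among pups 26 to 33 but 0.029 among pups 35 to 42. Without ChR2-flfl replicate 3, which was the lowest pup and had the shallowest library (30549126 reads), the difference was 0.29. Its ubiquitous partner Cox7a2 was at 93.0 to 105 CPM and at 94.7 to 104 CPM, with a difference of 0.006 (95% interval -0.061 to 0.072). Per kb, Cox7a2 was 76.8 to 195 times Cox7a1 in ChR2-flfl pups and 60.2 to 120 times in Avil-ChR2 pups. The list of 10 skeletal and cardiac muscle markers summed to 11.1 to 13.5 CPM in ChR2-flfl pups and 11.1 to 14.0 CPM in Avil-ChR2 pups, with 5 higher and 5 lower.

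The other members of complex IV named here did not pass the test. Cox8a, the ubiquitous subunit 8, was at 71.1 to 108 CPM in ChR2-flfl pups (median 84.9) and at 82.2 to 95.0 CPM in Avil-ChR2 pups (median 91.5), with a difference of 0.095 ± 0.060 (SE). Cox6a1 was at 90.2 to 134 (median 106) and at 93.4 to 122 CPM (median 117), with a difference of 0.072 ± 0.069. Cox7a2l, by its name a gene like Cox7a2, was at 76.2 to 83.7 and at 80.3 to 87.8 CPM. In Cox7a2l, 3 Avil-ChR2 pups lay above all ChR2-flfl pups, and the difference was 0.039 ± 0.027. Cox4i1 (0.019), Cox6b1 (0.004) and Cox7b (-0.006) differed by less than 0.02 on the log2 scale. Of the tissue-restricted forms, the log2 differences of Cox4i2 (0.53), Cox6a2 (0.14), Cox6b2 (-0.018) and Cox7b2 (-0.091) all had intervals that included 0, and that of Cox4i2 reached from -0.65 to 1.71.

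In complex V, Atp5j, coupling factor 6 of the stalk, had the smallest unadjusted p. It was at 56.0 to 62.9 CPM in ChR2-flfl pups (median 58.1) and at 59.3 to 64.5 CPM in Avil-ChR2 pups (median 60.6), and the Avil-ChR2 pups lay above the mean of the other genotype in 8 of 8 cases. The log2 difference was 0.058 ± 0.029 (SE, n = 8 and 8), with p = 0.056 and adjusted p = 0.911 in limma and p = 0.039 in the exact permutation test. By run of pup numbers it was 0.019 (26 to 33) and 0.097 (35 to 42). Atp5j overlaps Gabpa, which encodes a subunit of GABP, on the opposite strand. Gabpa was at 30.0 to 34.6 CPM in ChR2-flfl and 28.8 to 34.6 CPM in Avil-ChR2 pups, with a difference of -0.042 ± 0.044 (SE). Atp5a1 was at 708 to 781 CPM and at 736 to 790 CPM, with a difference of 0.031 ± 0.025. Atp5l, subunit g of the membrane part, was at 18.7 to 22.1 and at 19.9 to 22.7 CPM, with a difference of 0.051 ± 0.039.

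Subunit c, which forms the rotating ring of complex V, is made from 3 nuclear genes that encode the same mature protein. Atp5g3 was the main source of the transcript, at 153 to 197 CPM in ChR2-flfl pups (median 171) and at 167 to 189 CPM in Avil-ChR2 pups (median 180), with a difference of 0.073 ± 0.040 (SE) and an adjusted p of 0.927 in limma. Atp5g1 was at 33.6 to 43.1 and at 32.4 to 43.9 CPM, with a difference of -0.021 ± 0.057. Atp5g2 was at 16.96 to 19.3 and at 16.1 to 19.3 CPM, with a difference of -0.023 ± 0.042. Per kb, Atp5g3 was 8.75 to 11.1 times Atp5g2 in ChR2-flfl pups and 9.59 to 10.5 times in Avil-ChR2 pups. The order of Atp5g1 and Atp5g2 per kb depended on the transcript, with 8.03 against 24.8 CPM per kb for the longest and 63.5 against 41.0 for the shortest principal transcripts.

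The genes left out for their position had small differences as well. Atp5b was at 814 to 909 CPM in ChR2-flfl pups and at 814 to 875 CPM in Avil-ChR2 pups, with a log2 difference of 0.010 ± 0.025 (SE). Ndufa4l2 was at 2.04 to 2.78 CPM and at 1.86 to 2.48 CPM, with a difference of -0.11 ± 0.094. Neither passed the test, with adjusted p-values of 0.987 and 0.954 in limma.

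The members varied together between pups, also within genotypes. After removal of the genotype means, the median Pearson r over all 3003 pairs of the 78 members with a mean log2 CPM of at least 0 was 0.28, with quartiles of 0.0078 and 0.53, and 75.7% of pairs were positive. The median was -0.0033 over all pairs of 15137 genes at that level. Pairs from the same complex (median r of 0.26) and from different complexes (0.28) had similar values. The mean of complex I had an r of 0.96 with that of complex III and of 0.90 with that of complex V over the 16 pups, and of 0.65 with complex IV without Cox4i2. The first axis held 51.4% of the variance of the 78 members. Atp5g3 (mean r of 0.43 with the other members), Uqcr10 (0.42) and Ndufb10 (0.42) followed the others most closely. Atp5s (-0.076), Cox6b2 (-0.040) and Atp5l (0.004) had the lowest mean r of the 78. All pairs share the libraries, the CPM scale and the length slope described above.

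Members were lower in male than in female pups in most cases, but none passed adjustment. With the sexes of the labels and the genotype in the model, 73 of 81 members were lower and 8 higher in males. The median of the log2 differences was -0.037. Lower values in males were found for 10906 of all 21183 genes in that fit. At an unadjusted p under 0.05 there were 9 members (11.1%), all lower in males, against 4.46% of all genes in either direction and 2.12% lower. Their smallest adjusted p was 0.988. With the sexes of Additional file 2, 70 members were lower, the median was -0.028 and 7 members passed at that level, against 733 of all genes. Without Avil-ChR2 replicate 4 there were 72 lower and 8 that passed, against 808 of all genes. With the run of pup numbers (26 to 33 or 35 to 42) as a covariate, added after seeing the data, the sexes of the labels gave 65 lower, a median of -0.026 and 6 members at that level. Those of Additional file 2 gave 61 lower, a median of -0.020 and 5 members. In these fits 897 and 755 of all genes passed. Without ChR2-flfl replicates 1, 2 or 3 there were 4, 3 and 5 members, and without Avil-ChR2 replicate 7 there were 15. In the same order, 933, 820, 774 and 950 of all genes passed in these fits. Uqcrb, a complex III subunit named for its smallest p after its values were seen, was at 26.6 to 30.8 CPM in males (median 28.9) and at 29.0 to 33.8 CPM in females (median 30.3) by Additional file 2. Its log2 difference by the labels was -0.12, with an adjusted p of 0.988 in limma.

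The runs of pup numbers, 26 to 33 and 35 to 42 with 4 pups per genotype in each, were compared as well. With the genotype in the model, 60 of 81 members were lower and 21 higher in pups 35 to 42. The median of the log2 differences was -0.039. Lower values in the later run were found for 10597 of all 21183 genes. The sexes were spread unevenly over the runs, with 2 males among 8 pups in the earlier and 5 among 8 in the later run by the labels, and 3 and 5 by Additional file 2. With the sex of the labels as a covariate the median was -0.021, with 53 members lower and 28 higher. At an unadjusted p under 0.05 there were 13 members, against 2529 of all genes, and their lowest adjusted p was 0.164 in limma. With the sex of Additional file 2, a fit added after seeing the data, the median was -0.029. In that fit 56 members were lower and 16 had an unadjusted p under 0.05, against 2604 of all genes. Without a sex term, at an unadjusted p under 0.05 there were 17 members (20.99%), 16 lower and 1 higher, against 12.5% of all genes and 6.74% of all genes lower. None passed an adjusted p of 0.05, which 0.123% of all genes did. Ndufc1, a complex I subunit named for its smallest p after its values were seen, was at 14.3 to 17.5 CPM in pups 26 to 33 (median 15.7) and at 12.2 to 14.5 CPM in pups 35 to 42 (median 13.5). Its log2 difference was -0.22 with an adjusted p of 0.075 in limma. Without ChR2-flfl replicate 4, 1 member, Ndufb6 of complex I, was below the threshold, with an adjusted p of 0.049 in limma. In that fit 123 of all genes were below it, against 26 with all pups. Cox6b2 was the member that was higher at an unadjusted p under 0.05, at 0.737 to 1.31 CPM (median 0.834) in the earlier and 1.02 to 1.38 CPM (median 1.19) in the later run, with a difference of 0.41.

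Other values moved with the run of pup numbers as well. The median log2 difference between runs was -0.27 over 7 oligodendrocyte lineage markers, -0.37 over 6 markers of hippocampus and striatum and -0.39 over 5 erythroid markers. The median span slope was -0.0077 in the earlier run and 0.0044 in the later run. Their part in the difference of the members was not tested, and the labels do not say what the numbers stand for. Within the runs the genotype difference of the members had a median of 0.034 and 0.033. In both runs 48 of 81 members were higher in Avil-ChR2 pups, 4 were lower in both, and 29 changed sign. Among all 21183 genes tested, 5869 were higher in both runs, 5673 were lower in both, and 9641 changed sign.

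The genotype by sex interaction asks whether the difference between genotypes was unlike in males and females. At an unadjusted p under 0.05 there were 7 members (8.64%), against 4.31% of all genes, and none passed adjustment. With the sexes of the labels, 61 members had a larger Avil-ChR2 minus ChR2-flfl difference in males than in females and 20 a smaller one. The median was 0.046. A larger difference in males was found for 10611 of all 21183 genes. The 7 were Atp5h, Cox7a2, Ndufa5, Sdhd, Atp5j and Atp5c1, with positive terms of 0.11 to 0.18, and Cox7a1 with -0.82, and they are named because they passed at that level. With the sexes of Additional file 2 there were also 7, all positive, and Cox7a1 was not among them. In that fit 1320 of all 21183 genes passed at that level, against 912 with the sexes of the labels. By the labels, without ChR2-flfl replicate 2 the median was 0.015. Without ChR2-flfl replicates 1 or 3 there were 3 and 4 members at that level, against 815 and 701 of all genes. Without Avil-ChR2 replicate 4 the median was 0.055, and 5 members passed at that level, against 1000 of all genes.

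Genes that work beside the nuclear subunits had differences of similar size. Of 45 tested assembly factors, which build the complexes and do not stay in them, 35 were higher and 10 lower in Avil-ChR2 pups, with a median of 0.020, and 1 passed an unadjusted p under 0.05. This was Cox16, an assembly factor of complex IV, at 7.52 to 8.82 CPM in ChR2-flfl pups and 7.84 to 9.43 CPM in Avil-ChR2 pups, with a difference of 0.13 ± 0.049 (SE) and an adjusted p of 0.841 in limma. The 13 OXPHOS genes of mitochondrial DNA, which are the partners of the nuclear subunits, went the other way in 9 and the same way in 4 cases, with a median of -0.009. COX1, the catalytic subunit of complex IV and the most abundant of them, was at 7277 to 8795 CPM in ChR2-flfl pups and 7619 to 8717 CPM in Avil-ChR2 pups. ND4L had the smallest p of the 13, with a difference of -0.065 ± 0.047 (SE). These transcripts were counted in libraries from poly(A) RNA, in which mitochondrial transcripts carry short tails.

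Among 15 electron carriers and adjacent genes, 10 were higher and 5 lower. Vdac1, the main channel of the outer mitochondrial membrane, was at 325 to 365 CPM in ChR2-flfl pups and at 361 to 389 CPM in Avil-ChR2 pups, with a difference of 0.068 ± 0.026 (SE) and an adjusted p of 0.835 in limma. Etfa, which passes electrons from fatty acid oxidation to ubiquinone, differed by 0.11 ± 0.052, with an adjusted p of 0.908. Of 18 citric acid cycle genes, 13 were higher and 5 lower, with a median of 0.019, and Pdhb of the pyruvate dehydrogenase complex had the smallest p, with a difference of 0.058 ± 0.028 and an adjusted p of 0.911.

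Regulators of mitochondrial biogenesis were lower in 13 and higher in 7 of 20 cases, with a median of -0.019. Nrf1, the factor for which promoter letters are given above, was at 24.2 to 28.6 CPM in ChR2-flfl pups (median 25.8) and at 23.8 to 25.3 CPM in Avil-ChR2 pups (median 24.7), with a difference of -0.074 ± 0.035 (SE) and an adjusted p of 0.911 in limma. Tfb2m, a mitochondrial transcription factor, had a difference of 0.087 ± 0.041 and the same adjusted p. Ppargc1a, the coactivator PGC-1alpha, was at 43.8 to 49.5 and at 43.0 to 47.7 CPM with a difference of -0.019 ± 0.030. Tfam, which packs and transcribes mitochondrial DNA, was at 27.8 to 32.1 and at 27.2 to 31.9 CPM with a difference of 0.024 ± 0.038. None of these lists held a gene with an adjusted p under 0.05.

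Markers of the cell types of the tissue were compared because neurons and glia differ in mitochondrial content. None of the 10 marker lists held a gene with an adjusted p under 0.05. The summed markers of glutamatergic neurons were at 1233 to 1356 CPM in ChR2-flfl and at 1297 to 1383 CPM in Avil-ChR2 pups. Avil-ChR2 pups had higher values for 2 and lower values for 5 of these 7 markers, with a median log2 difference of -0.0094. Slc17a7, a vesicular glutamate transporter of cortical neurons, had the smallest p of the list and was one of those higher, with 0.11 ± 0.049 (SE) and an adjusted p of 0.884 in limma. Summed interneuron markers were at 280 to 322 and at 289 to 341 CPM, astrocyte markers at 825 to 1033 and at 919 to 1056 CPM, and oligodendrocyte lineage markers at 276 to 387 and at 287 to 376 CPM. Microglia markers summed to 62.4 to 97.9 and to 78.0 to 93.6 CPM, endothelial markers to 191 to 215 and to 191 to 230 CPM, and hippocampus and striatum markers to 72.6 to 91.7 and to 74.2 to 103 CPM. The ranges of the genotypes overlapped for each list. Values were higher in Avil-ChR2 pups for 6 of 7 interneuron markers (median log2 difference of 0.049), 5 of 7 astrocyte markers (0.047), 6 of 7 oligodendrocyte lineage markers (0.040), 6 of 6 tested microglia markers (0.056), 4 of 6 endothelial markers (0.031) and 4 of 6 markers of hippocampus and striatum (0.042). These medians lay above the median of 0.028 over the members. Choroid plexus markers were nearly absent, at 1.59 to 2.42 and 1.45 to 3.27 CPM. Erythroid markers summed to 227 to 465 and to 237 to 358 CPM, with 5 of 5 tested genes lower in Avil-ChR2 pups and a median log2 difference of -0.13. Erythroid transcripts were thus counted in all libraries, although Alas2 was listed without reads, as was P2ry12 of the microglia list. The part of these cell types in the differences of the members was not tested.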

How the data were processed

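Cortex RNA of 8 Avil-ChR2 and 8 ChR2-flfl pups was sequenced from mRNA libraries. The authors mapped reads (50 bp or longer) with SeqMan NGen on mm10, which is GRCm38, summed them per gene in ArrayStar and applied the TMM factors of edgeR. The deposited values are linear CPM with 1 column per pup, decimal commas and empty cells for no reads, and replicates were not pooled. Whether counting used the strand is not given in the sources used here. Reads were recovered from the step that 1 read gives, and below 20000 reads all values came out whole (tolerance 0.05 reads). Without molecular identifiers, depth bears on counting error alone.

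Values were log2 transformed without a pseudocount, and those missing or below -5 were set to -5 (4432 of 338928, 3 of them in members). Genes above -5 in at least 12 of 16 pups were tested with limma 3.58.1 (R 4.3.3, lmFit and eBayes with trend), with Benjamini-Hochberg adjustment over 21183 genes, after a test on simulated data. Differences are Avil-ChR2 minus ChR2-flfl. Exact permutation tests of single genes ran over all 12870 splits and are two-sided. The labels name separate animals. Transcript lengths are from GENCODE M21, and promoters from RefSeq GRCm38.p6. The members and all gene lists were chosen with earlier results of these data known. Members were named by a rule: per complex the 3 smallest unadjusted p, the 2 highest levels and the lowest level per kb, all of complex II, isoform pairs and core subunits, and in the other lists up to 3 genes with the smallest p. Others are marked in the text as named after their values were seen. Alternatives changed filters, imputation, scaling, covariates, samples and the test. The values of 1 named member are not reported here.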

Additional observations from a re-analysis of the deposited data

Results flagged for a closer look

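Of 82 groups of 8 pups examined (the members' means and the named members), 8 held a pup whose gap to the nearest other pup exceeded Dixon's 95% critical value as a share of the range of the group, and chance gives about 5% of groups. The mean log2 CPM over all members was 5.37 in Avil-ChR2 replicate 6, against 5.47 in the next pup of that group. It was 5.59 in ChR2-flfl replicate 2, against 5.45 in the next pup, and that pup also had the highest complex V mean, at 5.998. ChR2-flfl replicate 1 was lowest for Ndufs1 (log2 CPM of 6.79) and for Sdha (7.65). Avil-ChR2 replicate 6 was lowest for Uqcr10 (5.08), and ChR2-flfl replicate 3 for Cox7a1 (-1.63). Cox4i2 had no reads in Avil-ChR2 replicate 4 and stood at the floor of -5.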

How the results depend on the processing

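The count of members with an unadjusted p under 0.05 between genotypes in limma, 4 in the main fit, depended on the setting. It was 1 with the replicate numbers as a block, 2 with the sex of the labels as a covariate and 1 in pups 26 to 33 alone. In the same order, 1091, 1068 and 672 of all genes passed in these fits. The count was 8 (all lower) with the slope on genomic span, where 1149 of all genes passed. With the slope on transcript length, which was added after seeing the data, it was 1, against 744 of all genes. Leaving out 1 pup gave 0 to 14, where 929 to 1581 of all genes passed. No member reached an adjusted p under 0.05 between genotypes in any alternative run, and the lowest was 0.503. The median difference of 0.028 lay between 0.019 and 0.045 when 1 pup was left out, and at -0.008 and -0.014 with the slopes. The counts between sexes (9) and for the interaction (7) were 5 and 4 with median centring, against 889 and 808 of all genes. Between sexes, 5 members were counted with the sexes of Additional file 2 and the run of pup numbers as a covariate, added after seeing the data. In that fit 755 of all genes passed. Leaving out 1 pup gave 3 to 15 members between sexes, against 774 to 1250 of all genes. It gave 3 to 10 for the interaction, against 701 to 1172 of all genes. Between runs it gave 12 to 25, against 2152 to 3163 of all genes. The alternatives in edgeR and DESeq2 were not run. Limma voom on the recovered reads was added in their place, with 3 members between genotypes, against 1209 of all genes. Same-numbered pups are different animals, and the correlations of their deviations lay between -0.344 and 0.389, so that the numbers did not pair the samples. Of 1082 values of the 35 named members under alternatives, 81 had the other sign, 32 of them with a length slope. For the median member, the number of pups and the spread between them, rather than the reads, limits what can be seen. Its 95% interval reached 0.084 to either side. For members with few reads, such as Cox7a1 and Cox7b2, counting error was a larger part of the spread.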
